A study of Mus musculus with 13 samples.

Results

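The genes described here were the 46 Wnt pathway genes of 25965 in the expression table whose symbol named a Wnt ligand, a Frizzled receptor (Fzd), a secreted Frizzled-related protein (Sfrp), a Dickkopf (Dkk), an R-spondin (Rspo), an Axin or a factor of the Tcf7 family. They comprised 19 Wnt ligands, 10 Frizzled receptors, 4 Sfrp, 4 Dkk and 4 R-spondin genes, 2 Axins and 3 Tcf7 family factors. Membership rested on the symbol alone and used no measured value, though the members were chosen with earlier results of these data known. RNA-seq was performed on female mouse embryonic stem cells (mESCs) derived from an FVB/NJ mother and a CAST/EiJ father. Undifferentiated cells, kept in 2i medium with LIF, gave 1 library (Day0). The other 12 libraries came from differentiating cells that had received a short hairpin RNA by viral transduction on day 2 and puromycin selection from day 3. They carried a nonsilencing hairpin (Nons) or 1 of 2 hairpins against Smarcc1 (Smarcc1.6 and Smarcc1.7), with 1 library for each hairpin on each of days 4, 5, 6 and 7. All 12 therefore shared the viral vector and puromycin, which Day0 lacked. The protein made from Smarcc1 is part of the core of BAF, a chromatin remodelling complex. With 1 library per hairpin and day, the 4 days served as replicates. Nothing in the labels gave separate cultures for the days, so they may be repeated samples of 1 culture. The p-values thus measured the spread between these libraries, not between independent cultures.

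Wnt ligands are lipid-modified secreted proteins that bind a Frizzled receptor together with a co-receptor of the LRP family. In the canonical branch this binding stops a destruction complex, built on Axin, from degrading β-catenin, which then enters the nucleus and works with TCF and LEF factors on its target genes. R-spondins raise the number of Frizzled receptors at the cell surface, Sfrp proteins bind Wnt ligands outside the cell, and Dkk1 blocks the LRP co-receptors. In the mouse embryo this pathway is known for its part in forming the primitive streak. In mESC culture the 2i medium holds an inhibitor of GSK3, a kinase of the destruction complex, so the pathway is held active there without a ligand.

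Levels are given as log2 CPM, the log2 of reads scaled to a common number of mapped reads. Depth lay between 13993440 and 63548092 mapped reads, and a gene with 0 reads carries the value of 0.9 reads. Day0 and the 3 libraries of day 6 had 85.3% to 86.5% of mapped reads in genes, against 91.6% to 92.6% in the other 9, so comparisons across days mixed these 2 sets whereas same-day comparisons did not. The knockdown itself was seen in all 8 same-day comparisons. Smarcc1 was at 9.10, 8.87, 8.28 and 7.89 in Nons on days 4 to 7, at 7.42, 7.40, 7.28 and 7.28 with Smarcc1.6, and at 7.96, 7.78, 7.17 and 7.51 with Smarcc1.7. That is 48.0% of the Nons level over both hairpins (limma adjusted p = 0.00232), with mean differences of -1.41 on day 4 and -0.50 on day 7. At Day0 the naive pluripotency markers Zfp42, at 8.98, and Esrrb, at 9.08, were abundant, and of the primitive streak markers T was at 2.78, Eomes at 2.71 and Mixl1 at 0.05.

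The 7 classes differed in level. Compared per kilobase of exon, in log2 CPM per kb, the highest member after Day0 was Fzd7, a receptor known as the leading Frizzled of pluripotent cells, at 4.60 to 5.56 in Nons. Axin1, the constitutive scaffold of the destruction complex, followed at 4.31 to 4.73, and Tcf7 and Tcf7l1 lay between 3.66 and 4.61. Among the ligands, Wnt8a was the highest of the 19 in each of the 4 Nons libraries, at 3.88 to 4.76, though on day 7 Wnt3 came close to it, at 3.92 against 4.06. At Day0 the ligands were low, with none above the 0.70 of Wnt7b. The highest Frizzled at Day0 was Fzd10, at 3.44 against 2.88 for Fzd7.

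**Figure D1:**
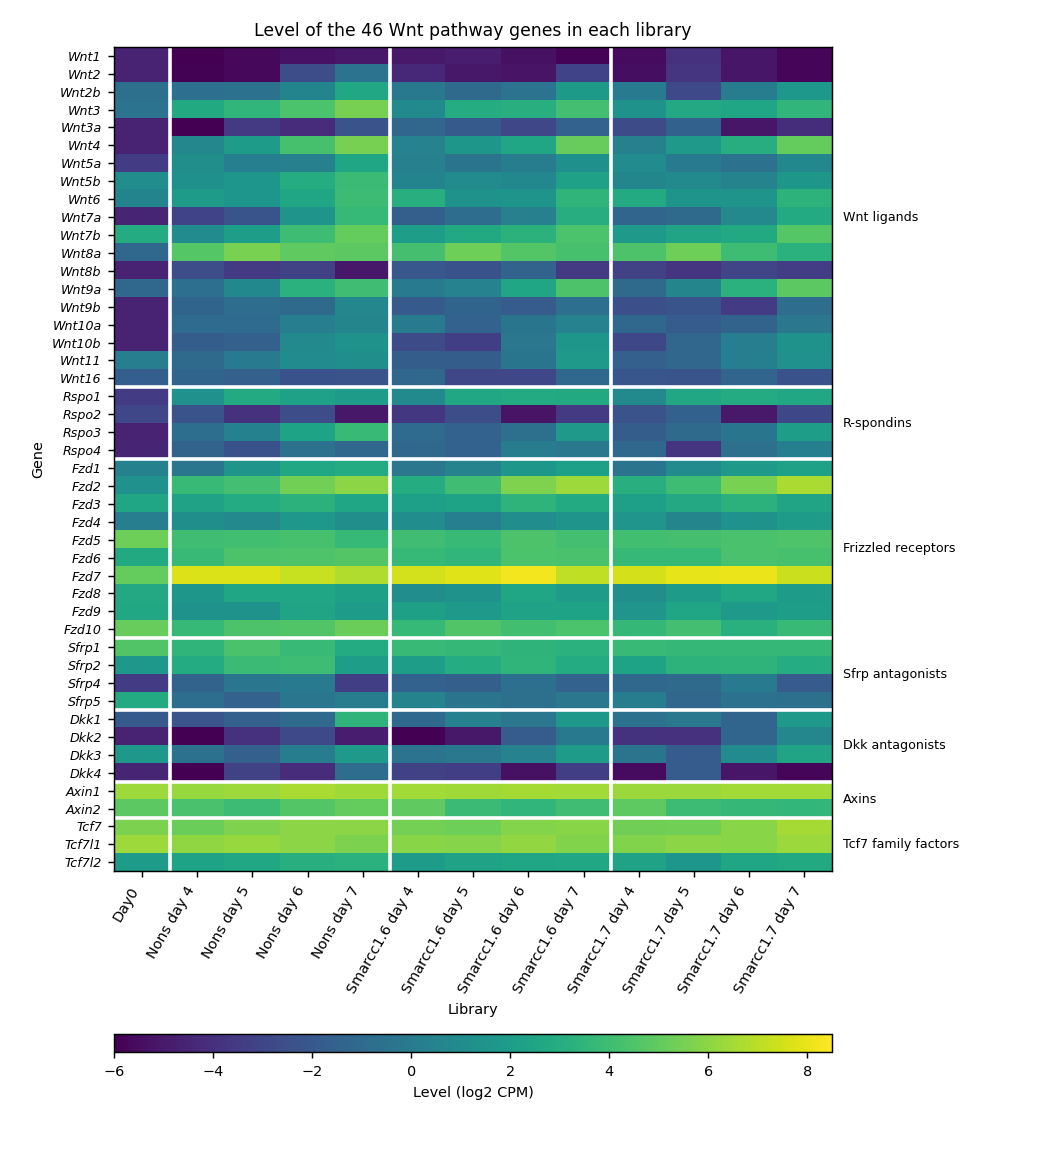
Level of each of the 46 genes (rows, grouped by class) in each of the 13 libraries (columns), as colour on a log2 CPM scale. Fzd7, Axin1, Tcf7 and Tcf7l1 are high in every library, while Wnt3, Wnt4, Wnt7a, Wnt7b, Wnt9a, Rspo3 and Fzd2 brighten from day 4 to day 7.

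Of the 46 genes, 30 averaged 0 log2 CPM or more over days 4 to 7 and were among the 13406 genes tested, and 16 did not pass. The untested members were Wnt1, Wnt2, Wnt3a, Wnt8b, Wnt9b, Wnt10a, Wnt10b, Wnt11, Wnt16, Rspo2, Rspo4, Sfrp4, Sfrp5, Dkk1, Dkk2 and Dkk4. Wnt1, a midbrain and neural crest ligand, never exceeded 2 reads in a library. Wnt2, Dkk2 and Dkk4 had over 3 reads in 3, 5 and 5 of the 13 libraries. Wnt3a, a canonical ligand of the late primitive streak, peaked at 27 reads, a log2 CPM of -1.23, in Smarcc1.6 on day 4 and had 0 reads in Nons that day. Wnt8b ran from -5.04 to -1.41, highest in Smarcc1.6 on day 6. Wnt10b (-4.63 to 1.68), Wnt11 (-1.75 to 1.87) and Wnt16 (-2.92 to -1.12) were each highest in Smarcc1.6 on day 7. Dkk1 missed the filter narrowly, with a mean of -0.06, and is described with its class.

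To place differentiation first, Day0 was set beside Nons on day 6, which belongs to the same set by reads in genes. With 1 library on each side there was no test. Genes at 0 log2 CPM or more in at least 1 of the 2 libraries were compared. A gene could thus enter through the library where it was high. Wnt4 and Rspo3 passed only through day 6, for example, and Sfrp5 only through Day0. Of 34 members compared, 21 were at least 2-fold lower at Day0 (21.5% of all genes compared were) and 2 were at least 2-fold higher (14.8% of all genes compared). The 2 higher members were both antagonists, Dkk3, at 1.75 against 0.15, and Sfrp5, at 2.84 against -0.28. Those lower at Day0 were 12 Wnt ligands, Rspo1 and Rspo3, 5 Frizzled receptors, Sfrp2 and Tcf7l2. The widest gaps were in Wnt4 and Rspo3, which had 0 reads at Day0 and 4.26 and 2.41 on day 6, followed by Wnt8a, at -1.16 against 4.94. Fzd7 also differed, at 5.06 against 7.31, whereas Axin1, at 6.36 against 6.66, and Tcf7l1, at 6.38 against 5.99, were within 2-fold.

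Change over days 4 to 7 was tested next. In limma, with group as a covariate and day as a number, 16 of the 30 members rose and 0 fell. This fit counted the libraries of a day as independent, although they were correlated, so its SE and p-values may be too small. Over all tested genes 34.9% rose and 25.6% fell. The risers were 7 Wnt ligands, Rspo1 and Rspo3, Fzd1, Fzd2, Fzd6 and Fzd8, Dkk3, Tcf7 and Tcf7l2. The steepest were Wnt7a, by 1.78 ± 0.21 (SE) log2 units a day, Wnt9a by 1.76 ± 0.12, Wnt4 by 1.57 ± 0.09 and Rspo3 by 1.24 ± 0.18. With each library centred on its median, Fzd8 and Rspo1 were no longer called and Sfrp1 fell (adjusted p = 0.0376), while over all genes the split of 4679 rising and 3435 falling turned to 3648 and 4606. Days 4 and 5 against 7 lie within 1 set of libraries, and there Wnt7a in Nons differed by 6.81 and 5.94 log2 units. It had only 7 and 10 reads on days 4 and 5, against 391 on day 7.

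The make-up of the ligand pool also shifted with day. Summed over the 19 ligands, the level in Nons was 21.9, 36.9, 44.0 and 76.6 CPM per kb on days 4, 5, 6 and 7, against 4.3 at Day0. Wnt8a, known from the posterior epiblast and streak, made up 67.2% and 73.3% of the Nons sum on days 4 and 5, 39.9% on day 6 and 21.8% on day 7. Over the same days the share of Wnt3 went from 10.5% to 19.8% and that of Wnt4 from 1.8% to 14.3%. At Day0 the leading ligand was Wnt7b, with 37.9%, ahead of Wnt5b with 19.4%. With Smarcc1.6 the sum was 18.5, 30.2, 25.8 and 50.0 CPM per kb and with Smarcc1.7 it was 19.9, 30.4, 20.9 and 42.5, so each knockdown library lay below Nons of its day. On day 7 the largest share was that of Wnt8a in Nons (21.8%) and with Smarcc1.6 (22.3%), but that of Wnt9a with Smarcc1.7 (20.4%). In plain CPM, the log2 ratio of the ligand sum to Nons was -0.21, -0.27, -0.88 and -0.60 under Smarcc1.6 and -0.14, -0.29, -1.08 and -0.74 under Smarcc1.7.

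**Figure D2:**
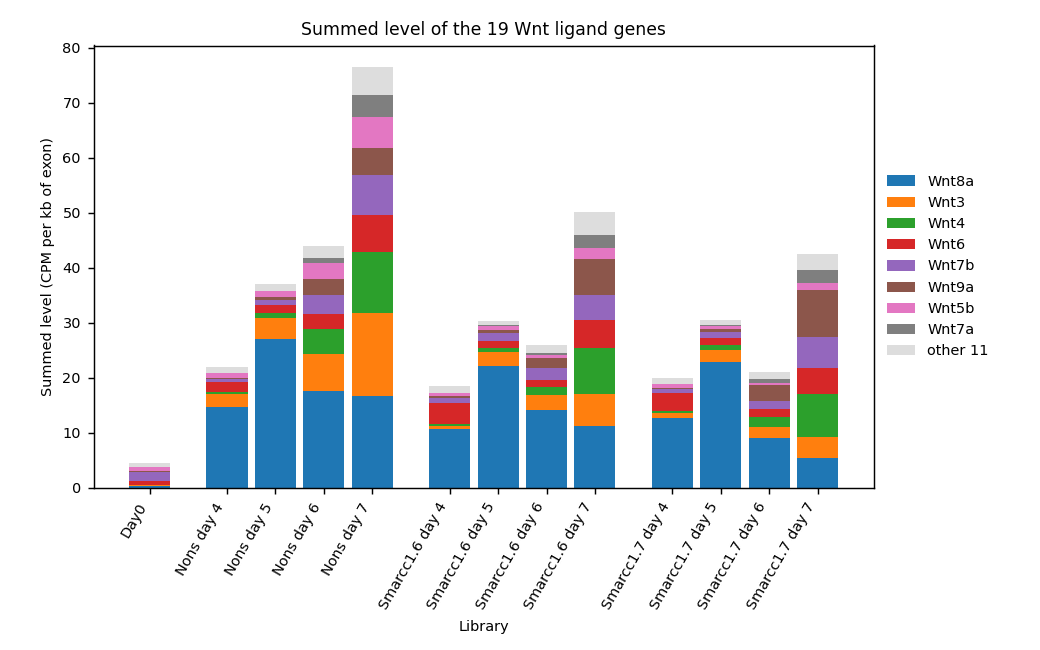
Summed level of the 19 Wnt ligand genes in each library, in CPM per kb of exon, with the 8 ligands of highest level in colour and the other 11 in grey. The sum rises from 21.9 on day 4 to 76.6 on day 7 in Nons, and every Smarcc1.6 and Smarcc1.7 bar is lower than the Nons bar of its day.

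To ask how Smarcc1 knockdown bore on the pathway, both hairpins were compared with Nons in limma with day as a factor. This fit counted the 2 hairpin libraries of a day as independent. On each day their deviations from the group means correlated more with each other than with those of Nons. The SE and p-values of the fit may therefore be too small. Knockdown lowered 4 of the 30 tested members, 3 Wnt ligands and 1 R-spondin, and raised 0. Rspo3 was at 30.0% of the Nons level, Wnt3 at 38.1%, Wnt5b at 38.4% and Wnt4 at 64.7%. Over all tested genes 4.77% were lower and 6.88% higher at the same threshold, an adjusted p under 0.05 after Benjamini-Hochberg adjustment. At an unadjusted p under 0.05 there were 12 members, 11 lower and 1 higher, the higher one being Fzd7, where 14% of all tested genes were lower and 14.1% higher. The median difference was -0.60 for the 10 tested ligands, -0.06 for the 10 Frizzled receptors and -0.13 over the 30 members, against -0.01 over all tested genes. In bulk RNA fewer cells of a type and less RNA per cell cannot be told apart. Wnt3, Wnt4, Wnt5a, Wnt5b, Wnt8a, Rspo3, Fzd6 and Tcf7l2 were below Nons in 8 of 8 same-day comparisons, and 0 members were above it in all 8. Over all tested genes 7.1% were below and 7.89% above in all 8. Both hairpins were set against the same Nons libraries, so the 8 comparisons are not independent.

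**Figure D3:**
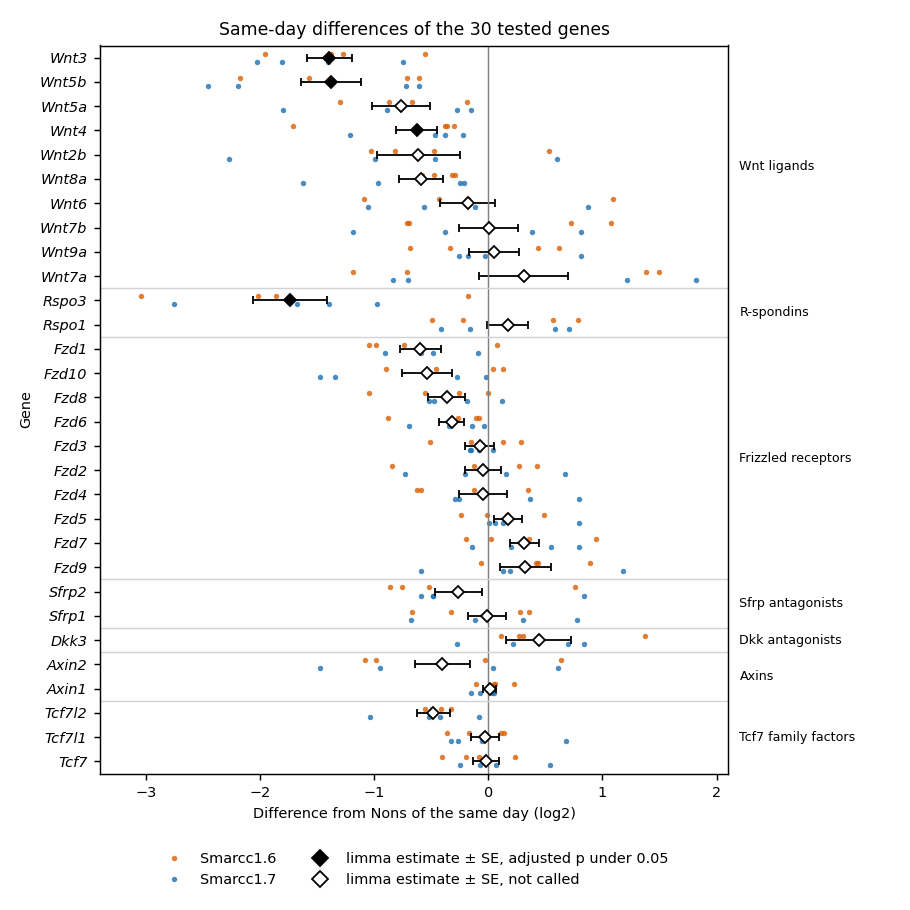
Difference from Nons of the same day (log2, horizontal axis) for the 30 tested genes, with 1 point for each of 4 days and each hairpin, and a diamond for the limma estimate with its SE, filled where the adjusted p is under 0.05. The filled diamonds, Wnt3, Wnt5b, Wnt4 and Rspo3, are all left of 0, with all 8 points of each on that side.

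Wnt3 was at a log2 CPM of -0.48 at Day0, of 2.83, 3.52, 4.37 and 5.54 in Nons on days 4, 5, 6 and 7, of 0.87, 2.97, 3.09 and 4.17 with Smarcc1.6 and of 1.43, 2.78, 2.56 and 3.52 with Smarcc1.7. Wnt3, the ligand without which the mouse embryo forms no primitive streak, thus climbed in every group and was lower with either hairpin on every day. The difference was -1.39 ± 0.20 (SE; limma adjusted p = 0.00311), with same-day means of -1.29 ± 0.57 (SD, n = 4 days) under Smarcc1.6 and -1.49 ± 0.56 under Smarcc1.7. Wnt5b stood at 1.14 at Day0 and then, over days 4 to 7, at a log2 CPM of 1.27, 1.61, 2.96 and 3.89 in Nons, 0.56, 1.01, 0.78 and 2.32 with Smarcc1.6 and 0.66, 0.89, 0.50 and 1.7 with Smarcc1.7. Levels of Wnt5b, a ligand mostly assigned to the branch without β-catenin, were close to Day0 until day 5, and in Nons they then went up while both knockdown libraries of day 6 stayed at or under 0.78. The difference was -1.38 ± 0.26 (limma adjusted p = 0.00855). For Wnt4 the log2 CPM from day 4 to day 7 was 0.72, 2.03, 4.26 and 5.52 in Nons, 0.42, 1.66, 2.55 and 5.14 with Smarcc1.6 and 0.34, 1.81, 3.05 and 5.06 with Smarcc1.7, beside -4.63 at Day0. For Wnt4, known for kidney and ovary development, the gap to Nons was widest on day 6, with differences of -1.71 and -1.21 then and of -0.38 and -0.46 on day 7. Its estimate, -0.63 ± 0.18, was just past the threshold (limma adjusted p = 0.0454). Without the libraries of day 6, Wnt3 was still called (adjusted p = 0.0277) while Wnt5b (0.0672), Rspo3 (0.0626) and Wnt4 (0.176) were not, and with day left out of the fit none of the 4 was called.

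**Figure D4:**
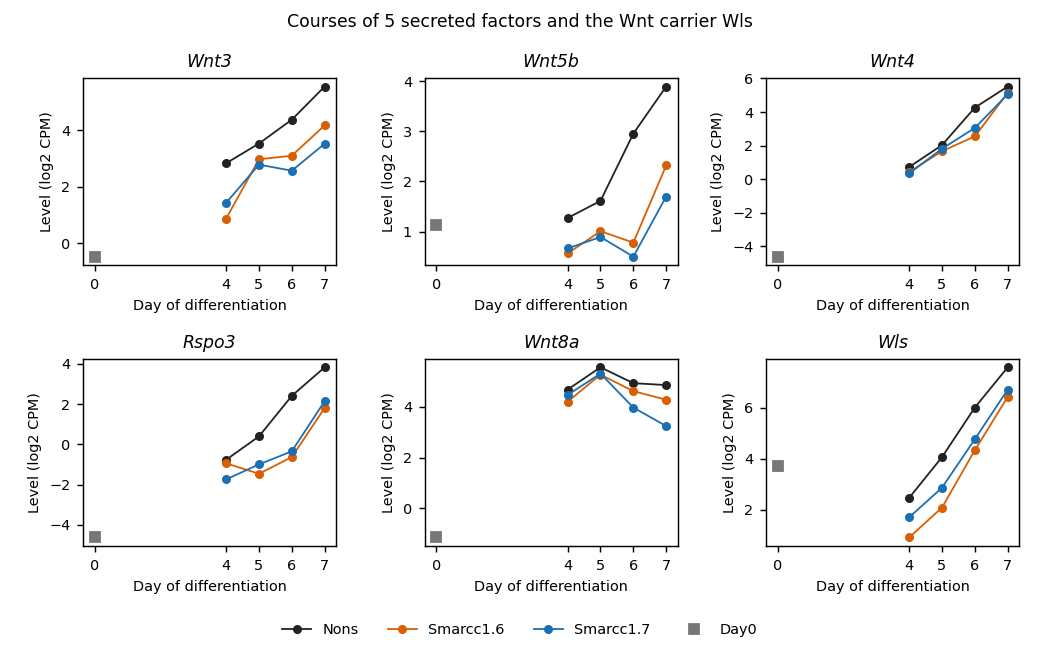
Levels (log2 CPM) of Wnt3, Wnt5b, Wnt4, Rspo3, Wnt8a and the carrier gene Wls by day of differentiation, with 1 point per library, lines joining the 4 days of a group and a square for Day0. In each panel both knockdown lines run below the Nons line on all 4 days, by most for Wnt5b and Rspo3 on day 6.

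Wnt8a was at a log2 CPM of -1.16 at Day0, of 4.68, 5.56, 4.94 and 4.86 in Nons on days 4, 5, 6 and 7, of 4.21, 5.27, 4.62 and 4.28 with Smarcc1.6 and of 4.47, 5.31, 3.97 and 3.24 with Smarcc1.7. The most abundant ligand thus peaked on day 5 in all 3 groups, and only with Smarcc1.7 did it drop under 4 on days 6 and 7. Its difference of -0.59 ± 0.19 did not pass the threshold (limma adjusted p = 0.0703), nor did that of Wnt5a, another ligand of the branch without β-catenin, at -0.77 ± 0.25 (adjusted p = 0.0716). Wnt5a stood at -3.48 at Day0 and then, over days 4 to 7, at a log2 CPM of 1.17, 0.27, 0.29 and 2.59 in Nons, 0.30, -0.40, 0.10 and 1.30 with Smarcc1.6 and 1.02, 0.0, -0.60 and 0.79 with Smarcc1.7. In every group Wnt5a was lowest on day 5 or 6, and the highest of its 13 values was that of Nons on day 7.

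Of the other tested ligands, none differed from Nons past the threshold. For Wnt6 the log2 CPM from day 4 to day 7 was 2.0, 1.59, 2.58 and 3.91 in Nons, 3.09, 1.42, 1.50 and 3.48 with Smarcc1.6 and 2.88, 1.48, 1.53 and 3.35 with Smarcc1.7, beside 0.57 at Day0. Wnt6 in knockdown was above Nons on day 4 and below it on days 5 to 7. Wnt7b was at a log2 CPM of 2.93 at Day0, of 1.01, 2.08, 4.02 and 5.08 in Nons on days 4, 5, 6 and 7, of 2.08, 2.80, 3.31 and 4.38 with Smarcc1.6 and of 1.82, 2.46, 2.83 and 4.70 with Smarcc1.7. For Wnt7b both hairpins were above Nons on days 4 and 5 and below it on days 6 and 7. Wnt7b is best known for lung and kidney development. Wnt9a stood at -1.16 at Day0 and then, over days 4 to 7, at a log2 CPM of -0.73, 0.77, 3.26 and 4.03 in Nons, -0.11, 0.44, 2.58 and 4.47 with Smarcc1.6 and -0.98, 0.59, 3.23 and 4.85 with Smarcc1.7. Wnt9a is a ligand of joint formation, and its differences from Nons lay between -0.68 and 0.81. For Wnt2b the log2 CPM from day 4 to day 7 was -0.69, -0.54, 0.56 and 2.70 in Nons, -0.16, -1.01, -0.46 and 1.89 with Smarcc1.6 and -0.09, -2.81, 0.10 and 1.71 with Smarcc1.7, beside -0.67 at Day0. For Wnt2b the lowest value, with Smarcc1.7 on day 5, stood for few reads. The differences over both hairpins were -0.18 ± 0.24 for Wnt6, 0.00 ± 0.26 for Wnt7b, 0.05 ± 0.22 for Wnt9a and -0.61 ± 0.36 for Wnt2b. Among the untested ligands Wnt9b was below Nons in 8 of 8 comparisons and Wnt10a in 7, with highest values of 0.69 and 0.60, both in Nons on day 7.

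Some of these ligand genes are neighbours, which the choice by symbol did not use. In mm10, 4 pairs lay within 100 kb of each other. Wnt3 (chromosome 11, 103774150 to 103817957, plus strand) and Wnt9b (minus strand) start 24.3 kb apart and point away from each other, and both were below Nons in 8 of 8 comparisons. The others were Wnt3a and Wnt9a, 16.2 kb apart on the same chromosome, Wnt10b and Wnt1, 11.7 kb apart on chromosome 15, and Wnt6 and Wnt10a, 6.2 kb apart on chromosome 1. In none of these 3 pairs did a partner stay on the same side of Nons in all 8 comparisons. Wnt5b lies on chromosome 6 (119432531 to 119544347, minus strand) and Wnt4 on chromosome 4 (137277489 to 137299726, plus strand).

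Promoter windows are shown for the 3 ligands that were lower in knockdown and for Axin2, the classic target of β-catenin, so that their sequence can be compared. Each runs from 250 bases before to 50 bases after the RefSeq start in GRCm38.p6 (the mm10 assembly), 5′ to 3′ on the gene's strand. Capitals mark matches to the motif of TCF and LEF factors, searched on both strands as CTTTGAA or CTTTGAT or CTTTGTA or CTTTGTT. Binding at a match was not measured. The windows are chr11:103773925-103774224 (plus) for Wnt3, chr6:119544298-119544597 (minus) for Wnt5b, chr4:137277385-137277684 (plus) for Wnt4 and chr11:108920099-108920398 (plus) for Axin2.
Wnt3: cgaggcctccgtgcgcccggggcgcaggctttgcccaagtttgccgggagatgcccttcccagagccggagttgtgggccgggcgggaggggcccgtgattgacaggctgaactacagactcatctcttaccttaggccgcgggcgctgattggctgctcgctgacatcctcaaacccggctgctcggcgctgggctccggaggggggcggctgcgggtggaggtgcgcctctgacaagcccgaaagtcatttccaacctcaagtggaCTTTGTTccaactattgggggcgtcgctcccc
Wnt5b: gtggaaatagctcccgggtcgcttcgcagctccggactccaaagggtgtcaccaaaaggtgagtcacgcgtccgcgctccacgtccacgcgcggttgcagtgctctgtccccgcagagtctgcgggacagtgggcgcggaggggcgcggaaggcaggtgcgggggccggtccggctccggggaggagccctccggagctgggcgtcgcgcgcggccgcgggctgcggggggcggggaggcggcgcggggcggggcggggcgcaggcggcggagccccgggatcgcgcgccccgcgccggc
Wnt4: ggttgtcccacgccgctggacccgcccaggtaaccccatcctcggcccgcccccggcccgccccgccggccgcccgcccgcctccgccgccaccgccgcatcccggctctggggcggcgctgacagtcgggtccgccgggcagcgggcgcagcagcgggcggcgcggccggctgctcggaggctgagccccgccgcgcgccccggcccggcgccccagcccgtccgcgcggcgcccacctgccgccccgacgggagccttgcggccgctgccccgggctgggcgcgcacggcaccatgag
Axin2: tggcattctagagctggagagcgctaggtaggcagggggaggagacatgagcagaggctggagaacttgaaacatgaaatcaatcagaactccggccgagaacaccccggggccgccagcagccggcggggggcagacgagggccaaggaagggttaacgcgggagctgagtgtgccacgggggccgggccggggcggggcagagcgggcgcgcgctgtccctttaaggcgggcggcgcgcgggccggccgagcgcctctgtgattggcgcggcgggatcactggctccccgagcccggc
Of these, Wnt3 held 1 match, CTTTGTT, 18 bases after the start, and the other 3 held none. Windows were found for 31 of the 46 genes by symbol. Of the 31, 4 (12.9%) held a match, namely Wnt3, Wnt11, Fzd7 and Dkk1, against 16.9% of all 32851 windows. The 4 windows shown were rich in G and C, at 65.7% for Wnt3, 70.0% for Axin2, 78.0% for Wnt5b and 84.3% for Wnt4, where the median window had 52.7%. They held 24, 31, 47 and 51 CpG pairs, against a median of 7.

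Among the R-spondins, Rspo3 had the largest difference of the 30 members. Rspo3 was at a log2 CPM of -4.63 at Day0, of -0.77, 0.39, 2.41 and 3.83 in Nons on days 4, 5, 6 and 7, of -0.95, -1.46, -0.63 and 1.81 with Smarcc1.6 and of -1.74, -1.0, -0.35 and 2.15 with Smarcc1.7. In Nons, Rspo3 was thus 4.60 log2 units higher on day 7 than on day 4, while with the hairpins it stayed under 0 through day 6. The difference was -1.74 ± 0.32 (SE; limma adjusted p = 0.00749). By day it was -0.18, -1.86, -3.04 and -2.01 under Smarcc1.6 and -0.98, -1.39, -2.76 and -1.68 under Smarcc1.7, widest on day 6 in both. Rspo1 stood at -3.48 at Day0 and then, over days 4 to 7, at a log2 CPM of 1.36, 2.85, 2.32 and 2.0 in Nons, 0.87, 2.63, 2.89 and 2.79 with Smarcc1.6 and 0.95, 2.69, 2.90 and 2.71 with Smarcc1.7. Rspo1 was the leading R-spondin per kb in Nons through day 6, and Rspo3 led on day 7. In the knockdown libraries Rspo1 led on all 4 days. Rspo2 and Rspo4 peaked at 12 and 60 reads, with highest log2 CPM of -1.48 and 0.24.

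The Frizzled receptors, all 10 of which were tested, showed 0 calls for knockdown in limma, with 1 higher (Fzd7) and 4 lower (Fzd1, Fzd6, Fzd8 and Fzd10) at an unadjusted p under 0.05. Fzd7 was at a log2 CPM of 5.06 at Day0, of 7.71, 7.74, 7.31 and 6.78 in Nons on days 4, 5, 6 and 7, of 7.52, 7.77, 8.25 and 7.14 with Smarcc1.6 and of 7.57, 7.93, 8.10 and 7.33 with Smarcc1.7. In Nons, Fzd7 was lowest on day 7, and on days 6 and 7 all 4 knockdown values were above Nons. The difference over the 4 days was 0.32 ± 0.13 (limma adjusted p = 0.122), and without the libraries of day 4 it was 0.48 and called (adjusted p = 0.0288), whereas without those of day 6 it was 0.13 (adjusted p = 0.541). Fzd1 stood at 0.38 at Day0 and then, over days 4 to 7, at a log2 CPM of -0.31, 1.49, 2.72 and 2.90 in Nons, -0.23, 0.50, 1.68 and 2.16 with Smarcc1.6 and -0.40, 1.0, 1.82 and 2.32 with Smarcc1.7. Fzd1 was below Nons in 7 of 8 comparisons, and its difference of -0.59 ± 0.18 missed the threshold narrowly (adjusted p = 0.055).

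For Fzd6 the log2 CPM from day 4 to day 7 was 3.77, 4.44, 4.48 and 4.61 in Nons, 3.69, 3.56, 4.38 and 4.34 with Smarcc1.6 and 3.74, 3.74, 4.34 and 4.26 with Smarcc1.7, beside 2.80 at Day0. Fzd6, a receptor of planar cell polarity, was below Nons in all 8 comparisons by a small margin, at -0.32 ± 0.11 (limma adjusted p = 0.0767). Fzd10 was at a log2 CPM of 5.14 at Day0, of 3.70, 4.43, 4.56 and 5.27 in Nons on days 4, 5, 6 and 7, of 3.74, 4.56, 4.11 and 4.37 with Smarcc1.6 and of 3.68, 4.16, 3.22 and 3.79 with Smarcc1.7. The difference of Fzd10 was -0.54 ± 0.22, with both hairpins lower on days 6 and 7. Fzd8 stood at 2.76 at Day0 and then, over days 4 to 7, at a log2 CPM of 1.67, 2.52, 2.52 and 2.22 in Nons, 1.12, 1.47, 2.52 and 1.96 with Smarcc1.6 and 1.20, 2.0, 2.64 and 2.03 with Smarcc1.7. Fzd8 was below Nons in 7 of 8 comparisons, by -0.37 ± 0.16. For Fzd2 the log2 CPM from day 4 to day 7 was 3.83, 4.18, 5.41 and 5.97 in Nons, 2.98, 4.06, 5.69 and 6.40 with Smarcc1.6 and 3.10, 3.97, 5.57 and 6.64 with Smarcc1.7, beside 1.35 at Day0. Among the receptors Fzd2 climbed most, by 1.06 ± 0.08 log2 units a day, and its difference from Nons over the 4 days was -0.05 ± 0.16.

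The last 4 receptors did not pass even at an unadjusted p under 0.05. Fzd3 was at a log2 CPM of 2.58 at Day0, of 2.33, 2.92, 3.31 and 2.57 in Nons on days 4, 5, 6 and 7, of 2.18, 2.41, 3.44 and 2.86 with Smarcc1.6 and of 2.17, 2.76, 3.34 and 2.48 with Smarcc1.7. Fzd3, a receptor of axon guidance, was highest on day 6 in each group. Fzd4 stood at 0.22 at Day0 and then, over days 4 to 7, at a log2 CPM of 1.21, 0.84, 1.71 and 1.15 in Nons, 1.09, 0.25, 1.08 and 1.50 with Smarcc1.6 and 1.58, 0.59, 1.42 and 1.95 with Smarcc1.7. Fzd4 is known from retinal vessels. For Fzd5 the log2 CPM from day 4 to day 7 was 4.08, 4.09, 4.28 and 3.69 in Nons, 4.07, 3.85, 4.45 and 4.17 with Smarcc1.6 and 4.09, 4.22, 4.34 and 4.48 with Smarcc1.7, beside 5.28 at Day0. For Fzd5 the highest of the 13 values was that of Day0. Fzd9 was at a log2 CPM of 2.62 at Day0, of 1.37, 1.37, 2.45 and 2.0 in Nons on days 4, 5, 6 and 7, of 2.26, 1.81, 2.38 and 2.42 with Smarcc1.6 and of 1.56, 2.55, 1.85 and 2.13 with Smarcc1.7. Their differences were -0.08 ± 0.12 for Fzd3, -0.05 ± 0.21 for Fzd4, 0.17 ± 0.12 for Fzd5 and 0.32 ± 0.22 for Fzd9. As a sum in CPM, the Frizzled class had a log2 ratio to Nons of 0.13 ± 0.33 (SD, n = 4 days) with Smarcc1.6 and 0.17 ± 0.25 with Smarcc1.7, against -0.49 ± 0.31 and -0.56 ± 0.43 for the ligands.

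Of the 4 Sfrp and 4 Dkk antagonists only Sfrp1, Sfrp2 and Dkk3 were tested. These gave 0 calls for knockdown in limma, and 0 also at an unadjusted p under 0.05. Sfrp1 stood at 4.54 at Day0 and then, over days 4 to 7, at a log2 CPM of 3.47, 4.32, 3.79 and 2.90 in Nons, 3.74, 3.65, 3.46 and 3.25 with Smarcc1.6 and 3.78, 3.64, 3.67 and 3.68 with Smarcc1.7. For Sfrp2 the log2 CPM from day 4 to day 7 was 2.91, 3.86, 4.0 and 2.14 in Nons, 2.15, 3.0, 3.49 and 2.90 with Smarcc1.6 and 2.43, 3.37, 3.41 and 2.98 with Smarcc1.7, beside 1.75 at Day0. Both tested Sfrp genes, whose products bind Wnt ligands in the extracellular space, were below Nons on days 5 and 6 and above it on day 7 with either hairpin. Nons itself had its lowest value of both on day 7. Their differences over the 4 days were -0.01 ± 0.17 and -0.26 ± 0.21. Dkk3 was at a log2 CPM of 1.75 at Day0, of -0.61, -1.54, 0.15 and 1.77 in Nons on days 4, 5, 6 and 7, of -0.50, -0.17, 0.45 and 2.03 with Smarcc1.6 and of -0.40, -1.81, 0.99 and 2.47 with Smarcc1.7. Dkk3, a divergent Dickkopf, was above Nons in 7 of 8 comparisons, with a difference of 0.44 ± 0.29 (limma adjusted p = 0.348). Dkk1 stood at -1.89 at Day0 and then, over days 4 to 7, at a log2 CPM of -2.20, -1.54, -0.97 and 3.44 in Nons, -1.04, 0.33, -0.26 and 1.74 with Smarcc1.6 and -0.59, -0.22, -1.29 and 1.84 with Smarcc1.7. Dkk1, the LRP blocker, was thus at or under 0.33 everywhere until day 7, when Nons reached 322 reads and exceeded both hairpins. Dkk2 went the other way that day, with -4.89 in Nons, -0.15 with Smarcc1.6 and 0.69 with Smarcc1.7. Sfrp5 was at its highest at Day0, and Sfrp4 did not exceed 0.05.

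Inside the cell, 0 of the members were called for the knockdown in limma. Axin1 was at a log2 CPM of 6.36 at Day0, of 6.25, 6.38, 6.66 and 6.46 in Nons on days 4, 5, 6 and 7, of 6.47, 6.44, 6.56 and 6.50 with Smarcc1.6 and of 6.30, 6.30, 6.51 and 6.49 with Smarcc1.7. The 13 values of Axin1 thus lay between 6.25 and 6.66. Tcf7l1 stood at 6.38 at Day0 and then, over days 4 to 7, at a log2 CPM of 6.09, 6.24, 5.99 and 5.63 in Nons, 5.92, 5.88, 6.13 and 5.75 with Smarcc1.6 and 5.77, 5.97, 5.94 and 6.31 with Smarcc1.7. Tcf7l1, a TCF that represses pluripotency genes in mESCs, changed neither with day (-0.01 ± 0.06 a day) nor with knockdown (-0.03 ± 0.12) past the threshold. For Tcf7 the log2 CPM from day 4 to day 7 was 5.27, 5.68, 6.0 and 5.99 in Nons, 5.50, 5.27, 5.81 and 5.91 with Smarcc1.6 and 5.34, 5.43, 5.93 and 6.53 with Smarcc1.7, beside 5.67 at Day0. For Tcf7 the difference was -0.02 ± 0.12, with the highest value in Smarcc1.7 on day 7. Tcf7l2 was at a log2 CPM of 1.96 at Day0, of 2.41, 2.66, 3.07 and 3.26 in Nons on days 4, 5, 6 and 7, of 2.0, 2.34, 2.58 and 2.70 with Smarcc1.6 and of 2.33, 1.62, 2.55 and 2.83 with Smarcc1.7. Tcf7l2 was the lowest of the 3 per kb, and it was below Nons in all 8 comparisons, by -0.48 ± 0.15 (limma adjusted p = 0.0543).

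Since some differences turned sign with day, the slope of the same-day difference on day was tested as well, a test chosen after the data were seen. In limma with day as a factor, 4 of the 30 members were called, against 3.75% of all tested genes. This fit, too, counted the 2 hairpin libraries of a day as independent, so its p-values may be too small. Axin2 stood at 4.85 at Day0 and then, over days 4 to 7, at a log2 CPM of 4.31, 3.93, 4.60 and 5.06 in Nons, 4.95, 3.90, 3.52 and 4.08 with Smarcc1.6 and 4.92, 3.97, 3.65 and 3.59 with Smarcc1.7. Axin2, which β-catenin induces and which feeds back on the pathway, was above Nons with both hairpins on day 4 (0.64 and 0.61), near it on day 5 (-0.03 and 0.04), and below it on day 6 (-1.08 and -0.95) and day 7 (-0.98 and -1.47). The slope was -0.66 ± 0.09 log2 units a day (limma adjusted p = 0.0038). For Wnt7a the log2 CPM from day 4 to day 7 was -3.09, -2.21, 1.52 and 3.72 in Nons, -1.60, -0.83, 0.34 and 3.01 with Smarcc1.6 and -1.27, -1.0, 0.82 and 2.89 with Smarcc1.7, beside -4.48 at Day0. For Wnt7a, a ligand of limb and neural patterning, the differences likewise went from 1.49 and 1.82 on day 4 to -0.71 and -0.83 on day 7 (slope -0.95 ± 0.22, limma adjusted p = 0.0345). On day 4 Wnt7a rested on few reads, 7 in Nons, 21 with Smarcc1.6 and 18 with Smarcc1.7. Fzd2 and Rspo1 went the opposite way, from -0.84 and -0.73 to 0.43 and 0.67 for Fzd2 (slope 0.44 ± 0.06, limma adjusted p = 0.00451) and from -0.49 and -0.41 to 0.79 and 0.71 for Rspo1 (slope 0.44 ± 0.10, limma adjusted p = 0.0358). Without the day 4 libraries 0 of the 30 members were called, and with day as a number in place of a factor 0 were called as well.

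**Figure D5:**
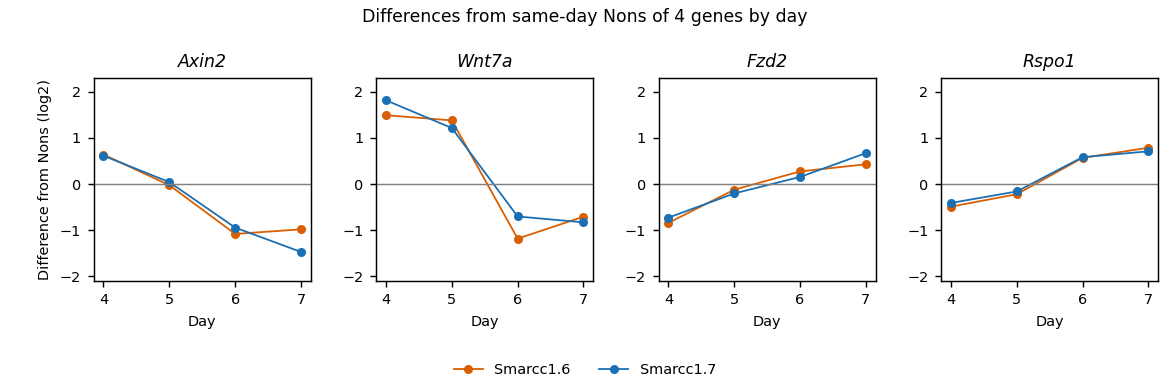
Difference from Nons of the same day (log2) for Axin2, Wnt7a, Fzd2 and Rspo1 on days 4 to 7, with 1 line per hairpin and a grey line at 0. Axin2 and Wnt7a cross from above to below Nons, and Fzd2 and Rspo1 cross from below to above.

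Each hairpin was also compared with Nons, in a limma model of all 3 groups. Both hairpins thus shared the Nons libraries and 1 estimate of the spread, so their calls are not independent. Smarcc1.6 lowered Wnt3, Wnt5b and Rspo3 and raised 0 of the 30 members (3.71% of all tested genes were lower and 5.59% higher), and Smarcc1.7 lowered the same 3 and raised 0 (0.768% lower and 1.69% higher). At an unadjusted p under 0.05, Smarcc1.6 gave 9 members lower and 0 higher, and Smarcc1.7 gave 10 lower and 1 higher, against 11.9% lower and 13.2% higher over all tested genes for Smarcc1.6 and 10.6% in each direction for Smarcc1.7. Rspo3 under Smarcc1.7 was barely past the threshold (limma adjusted p = 0.0498). Wnt4 was not called for either (limma adjusted p = 0.0736 and 0.168). With only 1 hairpin and Nons in the fit, which then held fewer libraries, 0 members were called for either hairpin. The cause was not tested. Between the hairpins, 0 of 13406 genes differed in limma at an adjusted p under 0.05 (530 at an unadjusted p under 0.05, with 0 members among them). The member differences of Smarcc1.7 from Smarcc1.6 ran from -0.48 for Fzd10 to 0.40 for Fzd4.

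The members were then set beside 65 other genes of the pathway, chosen with earlier results of these data known, of which 56 were tested. Of these, 7 were lower and 3 higher in knockdown, beside the 4.77% and 6.88% of all tested genes. The 2 genes of ligand secretion moved in opposite directions. Wls, the carrier that brings Wnt ligands to the cell surface, was at 2.47, 4.06, 6.01 and 7.58 in Nons, at 0.92, 2.09, 4.34 and 6.42 with Smarcc1.6 and at 1.71, 2.87, 4.77 and 6.71 with Smarcc1.7. It fell by 1.30 ± 0.18 on the log2 scale (limma adjusted p = 0.0025). Porcn, the X-linked enzyme that attaches the lipid to the ligand, was at 4.91, 3.49, 3.04 and 3.27 in Nons, at 6.10, 4.95, 4.44 and 3.37 with Smarcc1.6 and at 5.78, 4.56, 3.71 and 3.29 with Smarcc1.7, and rose by 0.85 ± 0.19 (limma adjusted p = 0.0157). Of 27 tested genes of the receptor complex and signal transduction, Ror2 (-0.79 ± 0.17) and Ptk7 (-0.59 ± 0.09), both co-receptors of the branch without β-catenin, fell and Btrc (0.31 ± 0.08), which marks β-catenin for degradation, rose. Of 13 tested inhibitors other than Sfrp and Dkk, 0 were called, with 4 lower at an unadjusted p under 0.05 (14% of all tested genes were). Of 8 nuclear partners, the co-repressor Tle3 fell (-0.40 ± 0.08) and Tle4 rose (0.31 ± 0.08).

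Of 12 tested transcriptional targets of the pathway, 3 fell and 0 rose, where 4.77% of all tested genes were lower and 6.88% higher. The median of the 12 targets was -0.05. Those lower were T (-2.50 ± 0.67, limma adjusted p = 0.0341), Sp5 (-2.14 ± 0.59, adjusted p = 0.0375) and Sp8 (-1.45 ± 0.22, adjusted p = 0.00349), all transcription factor genes. T, or brachyury, which also marks the primitive streak, was at 0.97, 2.62, 5.03 and 7.49 in Nons, at 1.28, 1.27, 0.87 and 4.19 with Smarcc1.6 and at 1.02, 1.48, 0.10 and 2.04 with Smarcc1.7. The other 9 did not pass the test, with estimates between 0.01 and 0.16 for Lef1, Myc, Notum, Nkd1, Apcdd1 and Rnf43 and of -0.22 for Cdx2, -0.17 for Ccnd1 and -0.11 for Znrf3. These estimates average over days, and some same-day differences changed sign. As means of both hairpins on days 4 to 7, they were 0.73, 1.06, 0.72 and -1.88 for Notum. They were 1.01, 0.13, -0.52 and -0.38 for Apcdd1, and -0.68, 0.28, 0.48 and -0.04 for Lef1. The slopes of these differences on day were not called in limma.

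Cell type markers, also chosen with earlier results of these data known, moved with these results, and their part in them was not tested. Of the 7 markers of primitive streak and mesoderm, 4 were tested and 2, T and Eomes, were lower in knockdown (4.77% of all tested genes were). The summed level of the list was 5.77, 5.50, 7.00 and 8.56 log2 CPM in Nons on days 4 to 7. It was 6.44, 5.17, 5.27 and 6.61 with Smarcc1.6 and 6.12, 5.06, 5.06 and 5.89 with Smarcc1.7. Both hairpins were thus above Nons on day 4 and below it on days 5 to 7. For 3 of the 4 tested markers the difference from Nons had a called negative slope, against 177 of all 13406 tested genes. That slope test was chosen after the data were seen. Mesp1 and Tbx6 had 0 reads in at least 1 library. Of the 8 naive pluripotency markers, 7 were higher in knockdown, against 6.88% of all tested genes. The summed levels of that list were 5.73 to 8.59 in Nons, 6.51 to 9.87 with Smarcc1.6 and 5.94 to 9.56 with Smarcc1.7. Sox17 fell (-0.88 ± 0.24) among 4 tested endoderm markers, Sox1 rose (2.07 ± 0.61) among 4 neuroectoderm markers, Otx2 rose (0.61 ± 0.14) among 4 of the formative and primed epiblast, and 0 of 4 trophoblast markers were called, with 1 higher and 2 lower at an unadjusted p under 0.05. Of the neuroectoderm markers 1 was higher and 1 lower at that unadjusted threshold, where 14.1% of all tested genes were higher and 14% lower. Summed, their list was below Nons with both hairpins on days 4 to 6, at 7.68 and 7.79 against 8.12 on day 6. On day 7 it was above, at 8.11 and 7.79 against 7.43. Of 4 tested mesenchyme markers, Col1a2 rose (2.82 ± 0.25), as did Thy1 (0.83 ± 0.20), and Twist1 fell (-0.80 ± 0.21).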

How the data were processed

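Female mESC RNA-seq libraries (13) were quantified. Per the study's methods, the authors made TruSeq libraries, sequenced paired-end reads, trimmed them with trim_galore, aligned them with tophat or hisat2 (TopHat2 2.0.12 in the submitters' processing notes) to mm10 with strain-specific positions masked, and counted reads per gene in Seqmonk, both alleles together. They deposited log2 CPM per gene. The strand setting and annotation release were not given in the sources used here, so overlapping genes were not told apart. Low values were whole multiples of 1 read in 100% of cases (tolerance 0.02 reads), which gave the depths, and 0 reads was written as 0.9. Such depths cover counting error only.

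Genes averaging 0 log2 CPM or more over days 4 to 7 (13406) were fitted with limma 3.58.1 in R 4.3.3 (eBayes with a trend), with Benjamini-Hochberg adjustment over all of them and a threshold of 0.05. Knockdown, and each hairpin in a model of 3 groups, was fitted with day as a factor, and change per day with group as a covariate. Day0 entered no test. The day pairs the libraries, since deviations from the group means correlated at 0.735 to 0.958 within each day. The models were tested on simulated data. That simulation drew the libraries as independent, so it could not check p-values under the correlation within days. Exon lengths and positions came from GENCODE M21. Python 3.11.15, pandas 2.3.3 and matplotlib 3.10.9 were used. Members were all named, those with a mean of at least 0 with each library's value and the others by their range, highest level or reads, and other pathway genes were named where called, at most 12 with the largest changes. A few other pathway genes and members were named outside this rule, after their values were seen. The members and lists were chosen with earlier results of these data known.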

Additional observations from a re-analysis of the deposited data

Results flagged for a closer look

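In 4 members the difference between knockdown and Nons changed with day, by the slope test that was chosen after the data were seen. The slope was -0.66 log2 units a day for Axin2, -0.95 for Wnt7a, 0.44 for Fzd2 and 0.44 for Rspo1. In all 4 both hairpins lay on one side of Nons on day 4 and on the other on days 6 and 7. The hairpins share the Nons libraries, so they do not support each other.

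Among 90 groups of 4 libraries, 1 library stood apart from the other 3 in 2 (chance flags about 1 in 20 groups, here 4.5). Both concerned Rspo1, which was lower on day 4 than on days 5 to 7, at 0.87 with Smarcc1.6 and at 0.95 with Smarcc1.7. In Nons the day 4 value, 1.36, was also the lowest of the 4.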

How the results depend on the processing

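The 4 falls in knockdown kept their direction under every setting run, but how many members were called did not hold. Without a replicate block for day, 0 members were called for knockdown, 0 for Smarcc1.6, 0 for Smarcc1.7 and 0 for the slope of the difference. The change per day had no such block, and with group left out of its fit it gave 16 as before. That setting still counted the libraries of a day as independent. With voom weights on the recovered reads knockdown called 7 members. Fitting only Smarcc1.6 and Nons called 0 members for knockdown and 0 for the slope, and fitting only Smarcc1.7 and Nons called 0 and 2. Without the trend Smarcc1.7 called 1 member. Leaving out 1 day or 1 library gave 1 to 10 members for knockdown, from 1 without day 6 to 10 without the Nons library of day 4, where Fzd7 and Axin2 were among them. It gave 0 to 5 for Smarcc1.6 (0 without day 6, 5 without the Nons library of day 4), 0 to 5 for Smarcc1.7 (0 without day 5, 6 or 7, or without the day 6 library of Nons or the day 6 or 7 library of Smarcc1.7, 5 without day 4 or its Nons library), and 0 to 5 for the slope (0 without day 4 or its Nons library). The change per day gave 13 to 18. Among called estimates the single one that changed sign was the change per day of Rspo1, -0.11 log2 units a day without day 4 (adjusted p = 0.451) in a range up to 0.82, without day 7. The causes were not tested, and fits that leave some libraries out also have fewer of them. Of the uncalled estimates, 12 of 26 for knockdown and 10 of 14 for the change per day changed sign under at least 1 setting. Among the 4 calls for knockdown over both hairpins, Wnt4 (adjusted p = 0.0454) had the narrowest margin, with adjusted p-values from 0.0358 to 0.188 when a day or library was left out. Of 3695 values for single members under other settings, 3272 kept their call and direction or, where not called, moved by less than their SE.

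Depth limits the 16 members below the filter, and the value of 0.9 reads for 0 sets their lowest levels. With 1 library per hairpin and day, days stand in for replicates, so a difference that comes and goes within a day range counts as spread.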
